A study of Mus musculus with 4 samples.

Results

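The miR-34 family was examined in C2C12 myotubes through 5 mature miRNAs, miR-34a-5p, miR-34b-5p, miR-34b-3p, miR-34c-5p and miR-34c-3p, which were chosen by name. All 5 were found, among 869 miRNAs detected in any sample. C2C12 is a single mouse skeletal muscle cell line whose myoblasts fuse into myotubes in low-serum medium. Myotubes were differentiated without guanidineacetic acid (GAA), the direct precursor of creatine, as the negative control (2 samples, NC) or under GAA at 20 mM (2 samples), and small RNA was sequenced on day 6. The labels give 129/Rej as the strain background of the line in both groups. Where 4 values are listed, they stand for NC-1, NC-2 and then GAA-1, GAA-2. The labels do not state whether the samples of a group came from separate cultures, so the tests measure only the spread between these samples.

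MicroRNAs are cut as a duplex from a hairpin, and the strand from its left side is called the 5p arm and the strand from its right side the 3p arm. One strand is usually kept in the Argonaute protein, where the bases of its 5′ end, the seed, pair with target mRNAs. miR-34a and the miR-34b/miR-34c cluster are known as direct transcriptional targets of the tumor suppressor p53 that repress cell cycle genes, and the cluster is best known from testis and from cells with motile cilia. p53 itself was not measured in these small RNA libraries.

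Mir34a lies at chr4:150068454-150068555 on the plus strand (GRCm38) and overlaps the exon of Gm37795, a transcript on the same strand. Mir34c at chr9:51103034-51103110 and Mir34b at chr9:51103562-51103645 lie on the minus strand, 451 bases apart, opposite an intron of Btg4. Mature sequences were available in RefSeq (GRCm38.p6) for 4 of the 5 members, all but miR-34c-5p. The sequences are shown because the members divide by seed, given in capitals as bases 2 to 8, and because the order of the samples differed between the arms of the cluster.
miR-34a-5p: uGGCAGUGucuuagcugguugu
miR-34b-5p: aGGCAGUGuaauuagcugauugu
miR-34b-3p: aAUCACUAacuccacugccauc
miR-34c-3p: aAUCACUAaccacacagccagg
miR-449a-5p: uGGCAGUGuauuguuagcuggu
miR-449c-5p: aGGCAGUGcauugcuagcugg
miR-34a-5p and miR-34b-5p shared one seed with miR-449a-5p and miR-449c-5p, which are no members, and these were the 4 mature entries with that seed among 1679 in the RefSeq table. miR-34c-5p had no entry there, so the count could not include it and its seed was not compared. The 3p arms of miR-34b and miR-34c shared a second seed that no other entry carried. Aligned from the 5′ end without gaps, miR-34b-3p and miR-34c-3p had 17 of 22 bases in common. For miR-34a-5p and miR-34b-5p, which are 22 and 23 bases long, the count was 11 of 22. Both of these hold the stretch uuagcug, but it stands further from the 5′ end in miR-34b-5p. A count without gaps misses most of such a stretch, so the 2 counts do not rank the likeness of the arms.

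The levels were obtained from deposited log2(RPM + 1) values, where RPM is the number of reads per 1000000 mappable reads. For a second scale, called miRNA RPM, reads were divided by the known miRNA reads of the sample instead. The 4 libraries held 4732359 to 5657704 mappable reads. Reads of known miRNAs made up 33.6% and 43.6% of them in NC and 56.3% and 50.4% in GAA, so the miRNA share of a library moved with the group. Among the 371 miRNAs with at least 1 RPM in every sample, the median log2 change (GAA minus NC) was 0.49 in RPM, 0.04 in miRNA RPM and -0.01 with median-of-ratios factors. Each change of a member is therefore read against the median on its own scale. As a check of the cell type, all 6 skeletal muscle miRNAs looked for were detected in every sample, and their summed level was 5630 to 7100 RPM in NC and 4518 to 4894 RPM in GAA. Most of this sum came from miR-133a-3p (3059, 3787, 2251 and 2409 RPM) and miR-133b-3p (2020, 2691, 1829 and 2104 RPM). miR-206-3p gave 494, 553, 406 and 355 RPM and miR-1a-3p 34.3, 46.1, 27.1 and 19.3 RPM. miR-208b-3p gave 18.7, 17.8, 3.05 and 1.41 RPM and miR-499-5p 4.47, 4.44, 1.98 and 4.07 RPM. The sums of lists for other cell types stood far lower than the muscle sum. Taken singly, however, miR-208b-3p and miR-499-5p lay below the neuronal sum in NC as well as in GAA. miR-1a-3p lay above it in both NC samples and below it in both GAA samples. The 5 blood cell miRNAs summed to 9.09 to 9.75 RPM in NC and 15.2 to 20.8 RPM in GAA (of which miR-142a-5p gave 6.09, 7.18, 16.9 and 13.4 RPM and miR-451a 2.03, 0.845, 0.719 and 0.177 RPM, while miR-223-3p was at 0 except for 1 read in GAA-1), the 2 endothelial ones to 11.0 to 12.4 RPM and 11.8 to 18.0 RPM, the 2 neuronal ones to 28.0 to 41.4 RPM and 43.1 to 59.8 RPM, and the liver miRNA miR-122-5p was at 0 in NC and at 0.354 to 3.05 RPM in GAA. The part of these differences in the results on the miR-34 family was not tested. In such bulk samples, fewer cells of a type and less RNA per cell cannot be told apart.

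miR-34c-5p gave most of the reads of the family in these myotubes. Its levels were 3904, 5857, 7090 and 4909 RPM, from 19225 to 39466 reads, which placed it at rank 15 of all miRNAs by mean RPM. The 2 samples of each group lay far apart, and the groups overlapped. In mean RPM miR-34c-5p stood just below miR-16-5p (5659 RPM) and above miR-199a-3p (4732 RPM), and its range over the samples overlapped those of both. It made up 90.4% to 91.6% of the summed RPM of the 5 members in every sample.

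miR-34b-5p, from the neighboring hairpin, was the second of the family. It was measured at 204, 297, 345 and 209.8 RPM, and the groups overlapped in the same pattern as for miR-34c-5p, with NC-2 and GAA-1 as the high samples. miR-34c-5p exceeded it by 19.2 to 23.4 times within a sample. This difference between 2 hairpins of one cluster was far wider than any difference between samples.

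miR-34a-5p, the only 5p member from chromosome 4, followed with 122, 149, 183 and 155 RPM. Both GAA samples were above both NC samples, although GAA-2 exceeded NC-2 by less than the 2 NC samples differed. It ranked at 110 by mean RPM (152 RPM), between miR-125b-2-3p (156 RPM) and miR-17-5p (151 RPM), and the ranges of all 3 over the samples overlapped. The summed cluster exceeded miR-34a-5p by 34.02 to 41.8 times, so the cluster and not Mir34a supplied most reads of the family in NC as well as in GAA.

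The 3p arms were the least abundant members. The levels of miR-34b-3p were 51.0, 54.7, 95.4 and 85.5 RPM. Those of miR-34c-3p were 35.3, 38.5, 70.1 and 68.8 RPM. For both, the GAA samples lay well above the NC samples in RPM, and on this scale the replicates lay closer together than those of the 5p arms. The order miR-34c-5p, miR-34b-5p, miR-34a-5p, miR-34b-3p, miR-34c-3p was found in each of the 4 samples. The ranges of the 2 last members over all samples overlapped, but within each sample miR-34b-3p was 1.24 to 1.44 times miR-34c-3p.

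**Figure D1:**
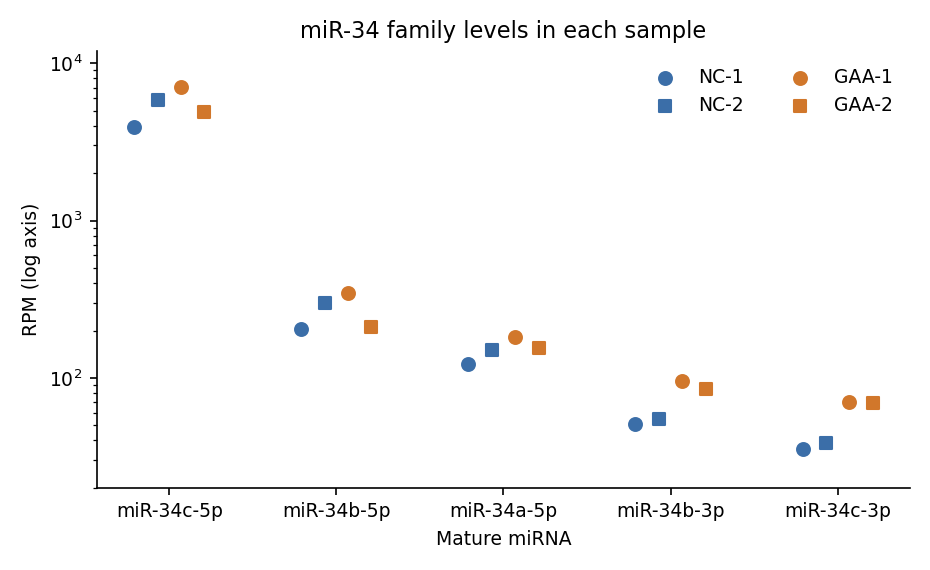
Level of each miR-34 member in RPM (log axis) in the 2 NC samples (blue) and the 2 GAA samples (orange), with circles for replicate 1 and squares for replicate 2. miR-34c-5p lies between 3904 and 7090 RPM in all samples, and only the 3p arms show a clear gap between NC and GAA.

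The effect of GAA was then examined with limma on log2(RPM + 1) over all 869 miRNAs, with a miRNA called where its FDR was under 0.01 and its log2 change exceeded 1 in size. None of the 5 members was called, and 0% of all miRNAs were. At an unadjusted p under 0.05, 152 miRNAs (17.5%) passed and 2 of them were members, the 3p arms. Neither 3p arm passed it with miRNA reads, where 8.06% of all miRNAs did, or with median-of-ratios factors, where 9.09% did. With the replicate number as a block miR-34c-3p alone of the members passed it, where 10.5% of all miRNAs did. The log2 change was 0.89 (SE 0.16) for miR-34c-3p, from 36.9 ± 2.2 RPM to 69.4 ± 0.92 RPM (SD, n = 2 each). For miR-34b-3p it was 0.76 (SE 0.16), from 52.8 ± 2.7 RPM to 90.5 ± 7.0 RPM (SD, n = 2 each). Both had an adjusted p = 0.205 with limma. The log2 changes of the 5p arms lay below the median of 0.49, at 0.32 (SE 0.19, adjusted p = 0.455 with limma) for miR-34a-5p, 0.30 (SE 0.32, adjusted p = 0.548) for miR-34c-5p and 0.13 (SE 0.35, adjusted p = 0.822) for miR-34b-5p. The values of the last 2 were smaller than the distance between the replicates, which was 0.53 to 0.71 on the log2 scale. In RPM, both GAA samples were above both NC samples for 3 of 5 members, miR-34a-5p and the 3p arms, where 64.4% of the 371 miRNAs at 1 RPM or more showed this order.

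The share of all miRNA reads gave another picture of the 5p arms. Summed over the 5 members, the family took 1.29%, 1.47%, 1.38% and 1.08% of the summed RPM of all miRNAs. In RPM the sum was 5356 ± 1472 for NC against 6605 ± 1665 for GAA (SD, n = 2 each). The groups overlapped on both scales. On both, the difference between the group means of the summed family was smaller than the distance between the 2 samples of either group.

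The levels of miR-34a-5p in miRNA RPM were 363, 342, 324 and 308. Both GAA samples were thus below both NC samples, the reverse of the order in RPM. The share of all miRNAs with this lower order was not counted, so the order is not read as a result about miR-34a-5p. The log2 change of miR-34a-5p was -0.16 (SE 0.19, adjusted p = 0.781 with limma). The changes of miR-34c-5p and miR-34b-5p were also below 0 on this scale, at -0.17 and -0.35, with overlapping groups. The direction of the 5p arms therefore depended on the divisor.

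The 3p arms kept their order. On the same scale miR-34c-3p was at 105, 88.1, 124 and 136, and miR-34b-3p at 152, 125, 169 and 169.8. The log2 changes were 0.43 (SE 0.22, adjusted p = 0.671 with limma) and 0.30 (SE 0.21, adjusted p = 0.777 with limma), so neither was called. Both GAA samples were above both NC samples for these 2 of 5 members, where 22.4% of the 371 miRNAs showed this order. With median-of-ratios factors the order of both was the same. In miRNA RPM the NC samples of both 3p arms lay further apart in proportion than those of miR-34a-5p.

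**Figure D2:**
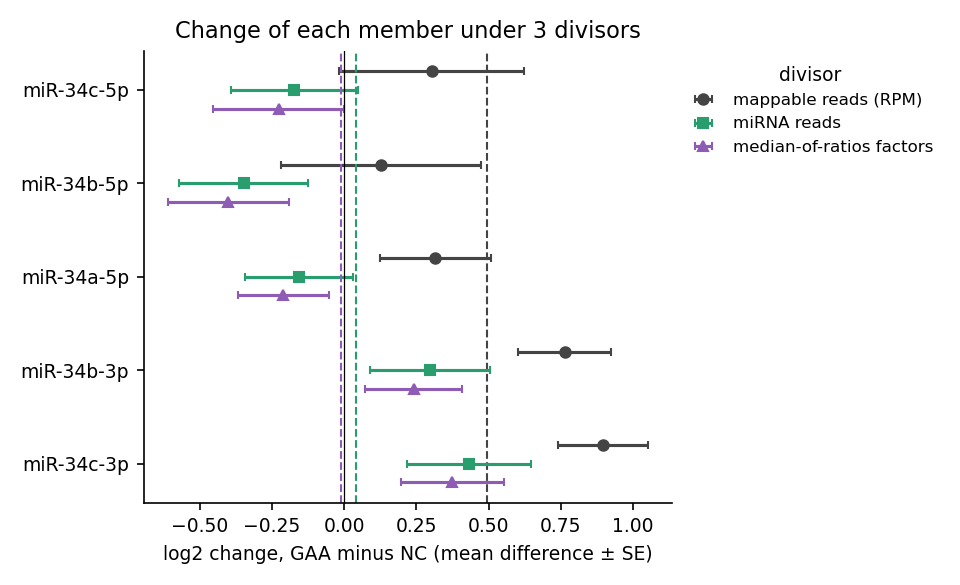
Log2 change (GAA minus NC, point) with its SE from limma (bar) for each member when reads were divided by mappable reads, by miRNA reads or by median-of-ratios factors. Dashed lines give the median change of the 371 miRNAs at 1 RPM or more on each scale (0.49, 0.04 and -0.01), and the 5p arms lie to the left of these lines while the 3p arms lie to the right.

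Ratios within a sample do not depend on the divisor. The ratio of miR-34c-5p to miR-34a-5p was 32.0, 39.2, 38.8 and 31.7, and the groups overlapped (difference in log2 ratio -0.01, exact two-sided permutation test, p = 0.667). The balance between Mir34a and the dominant arm of the cluster thus did not separate NC from GAA. The ratio of miR-34b-5p to miR-34c-5p differed by -0.18 and that of miR-34b-3p to miR-34c-3p by -0.13 on the log2 scale (exact permutation test, p = 0.333 and adjusted p = 0.417 for both). Among 5 such ratios and arm shares compared, the smallest p that 2 and 2 samples allow in the exact permutation test is 0.333, and the adjusted p has the same limit.

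The arms of the cluster were compared next. At the miR-34b hairpin the 5p arm dominated only moderately, and the 3p share of the reads of both arms was 20.0% (95% Wilson interval 17.9% to 22.3%), 15.5% (13.9% to 17.4%), 21.7% (20.1% to 23.4%) and 29.0% (26.8% to 31.2%). Both GAA samples were above both NC samples, but the intervals of NC-1 and GAA-1 overlapped. At the miR-34c hairpin almost all reads came from the 5p arm. Its 3p share was 0.897% (0.774% to 1.04%), 0.652% (0.564% to 0.754%), 0.979% (0.886% to 1.08%) and 1.38% (1.25% to 1.52%), again with both GAA samples higher and with overlapping intervals of NC-1 and GAA-1. These intervals cover counting error only.

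In means, the 5p share of miR-34b was 82.2% ± 3.2 for NC against 74.7% ± 5.1 for GAA (SD, n = 2 each), a difference of -7.54 percentage points. For miR-34c it was 99.2% ± 0.17 and 98.8% ± 0.28 (SD, n = 2 each), a difference of -0.41 percentage points. Both reached the smallest p that the exact permutation test allows (p = 0.333, adjusted p = 0.417 over the 5 comparisons). Without GAA-2 the differences were -3.90 and -0.20 percentage points. Across the 82 precursors with at least 10 reads of each arm in every sample, a comparison added after seeing the data, 25.6% had a lower 5p share in both GAA samples than in both NC samples and 7 precursors had a higher one. By the change in the log2 ratio of the 5p to the 3p arm, miR-34b and miR-34c were at places 8 and 9 of these 82, counted from the largest shift toward 3p.

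**Figure D3:**
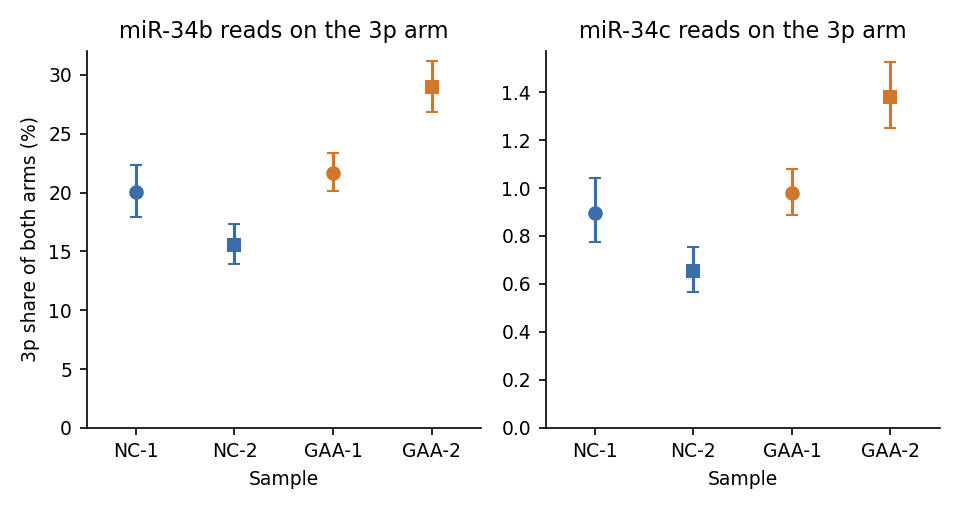
Share of the 3p arm among the reads of both arms at the miR-34b hairpin (left) and the miR-34c hairpin (right) in each sample, with 95% Wilson intervals as bars and separate vertical axes that start at 0. The GAA samples (orange) lie above the NC samples (blue) at both hairpins, with GAA-2 highest and the intervals of NC-1 and GAA-1 overlapping.

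At Mir34a the 3p arm, miR-34a-3p, was near the limit of detection, with 6, 6, 3 and 8 reads. This gave 0.539 to 1.41 RPM, against a floor of 0.530 to 0.634 RPM for 3 reads, and a change in arm use was not detectable at this depth. The 3p share was 0.294% to 0.990%, and the intervals of all 4 samples overlapped. miR-34a and miR-34c thus shared a strong preference for the 5p arm, while miR-34b did not.

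The relatives with the 5p seed were scarce. The levels of miR-449a-5p were 5.69, 6.34, 11.0 and 7.25 RPM, and those of miR-449c-5p 1.83, 6.13, 10.1 and 4.60 RPM. Together they amounted to 7.51 to 21.02 RPM, and miR-34c-5p alone exceeded this sum by 337 to 520 times. Neither was called by limma (adjusted p = 0.396 and 0.524). miR-449b was found as 1 read in GAA-1, and miR-449a-3p and miR-449c-3p had no row in any sample, which allows up to the floor of 3 reads.

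Other miRNAs known as p53-responsive were examined beside the family, from a list of 12 of which miR-605-5p had no row. None of the 11 found was called. In RPM 6 had an unadjusted p under 0.05 with limma, where 17.5% of all miRNAs did. This number was 3 with miRNA reads (8.06% of all miRNAs), 3 with median-of-ratios factors (9.09%) and 2 with the replicate block (10.5%). With miRNA reads the 3 were miR-192-5p, miR-194-5p and miR-200c-3p. The last of them was lower in GAA and had 2, 2, 1 and 0 reads. Their median log2 change was 0.42 in RPM, compared with 0.22 over all 869 miRNAs and 0.49 over the 371 at 1 RPM or more, and -0.06 in miRNA RPM. Of the 9 with at least 1 RPM in every sample, both GAA samples were above both NC samples for 7 in RPM and for 4 in miRNA RPM, beside shares of 64.4% and 22.4% over the 371 miRNAs. miR-215-5p, at 1.08 to 1.94 RPM, had overlapping groups and a log2 change of 0.01 in RPM and -0.35 in miRNA RPM. miR-192-5p and miR-194-5p, which come from shared hairpin clusters, had the largest changes of the list in RPM. miR-192-5p stood at 374, 429, 921 and 836 RPM (log2 change 1.13, SE 0.17, adjusted p = 0.205 with limma). miR-194-5p stood at 19.7, 26.9, 61.4 and 47.1 RPM (log2 change 1.19, SE 0.25, adjusted p = 0.205 with limma), and both kept both GAA samples on top in miRNA RPM. miR-107-3p, with 259 ± 9.8 RPM for NC against 347 ± 12 RPM for GAA (SD, n = 2 each), had a log2 change of 0.42 in RPM but -0.06 in miRNA RPM. The epithelial miR-200c-3p and miR-141-3p lay lower in both GAA samples, but at no more than 1.06 RPM.

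The profile of each member over the 4 samples, centered on its own mean of log2(RPM + 1), was compared with those of the 318 other miRNAs that had at least 10 reads in every sample. By Euclidean distance the nearest to miR-34c-5p were miR-148b-5p (0.07), miR-30a-5p (0.09) and miR-148a-3p (0.11), and miR-34b-5p was at place 24 (0.22). The nearest to miR-34a-5p was miR-3082-3p (0.08), with miR-34c-5p at place 68 (0.29). For miR-34c-3p the nearest was miR-149-5p (0.04), with miR-34b-3p at place 8 (0.16) and its own 5p arm at place 227 (0.77). For miR-34b-3p the nearest was let-7d-5p (0.06), with miR-34c-3p at place 20 and its own 5p arm at place 271 (0.81). For miR-34b-5p the nearest was miR-1983 (0.08), with miR-34c-5p at place 9. The arms of the cluster thus resembled the same arm of the neighboring hairpin more than the opposite arm of their own. With 4 points these distances are a description.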

How the data were processed

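Per the paper's methods, the authors filtered the Illumina reads, mapped clean reads to GRCm38.p5 with miRDeep2, matched them to miRBase and divided each count by the mappable reads. The deposited values are log2(RPM + 1), per the file headers and the values, and a miRNA that a sample's file does not list was set to 0 there. In each sample RPM took steps of 1 read (0.177 to 0.211 RPM), so reads were recovered. 95.6% of values were whole within 0.05, including all of the members. As the deposited unit is log2, limma 3.58.1 in R 4.3.3 was used (mean-variance trend, pseudocount 1, no filter, Benjamini-Hochberg adjustment over 869 miRNAs). A count model was not run on the recovered reads. Single values were compared with exact permutation tests. Shares have 95% Wilson intervals. Reads counted for near-identical miRNAs can be shared between them. Whether reads of different miRNAs or arms stand for equal numbers of molecules was not tested.

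The members and lists were chosen with earlier results of these data known. Named miRNAs were the members, their opposite arm and miR-449 relatives, 12 p53-responsive miRNAs, cell type markers, the 3 nearest profiles and the neighbors in mean RPM of miR-34a-5p and miR-34c-5p. No batch is given in the labels. Alternatives were other divisors, pseudocounts, filters, thresholds, no trend, the replicate block and each sample left out. Sequences came from RefSeq (GRCm38.p6) and gene overlaps from GENCODE M21. Figures were drawn with matplotlib 3.10.9.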

Additional observations from a re-analysis of the deposited data

How the results depend on the processing

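No member was called under any alternative run, except the 3p arms where an unadjusted p under 0.05 took the place of the FDR and fold thresholds. The 3p arms kept their direction in all of them, whereas that of the 5p arms turned with the divisor. With division by miRNA reads, with or without the replicate block, the log2 change was -0.16 for miR-34a-5p, -0.35 for miR-34b-5p and -0.17 for miR-34c-5p, and with median-of-ratios factors it was -0.21, -0.40 and -0.23. The log2 ratio of the summed family moved from 0.30 to -0.16 and -0.23. Leaving out single samples, the change of miR-34a-5p ranged from 0.17 (without NC-1) to 0.46 (without NC-2), that of miR-34b-5p from -0.23 (without GAA-1) to 0.48 (without GAA-2), that of miR-34c-5p from 0.01 (without NC-1) to 0.60 (without NC-2) and that of the summed family from 0.02 (without GAA-1) to 0.61 (without NC-2), and the difference in the log2 ratio of miR-34c-5p to miR-34a-5p from -0.16 to 0.13. Where 1 sample was left in a group, it was assumed to vary like the other group.

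The number of miRNAs called was 0 in RPM and 1 with miRNA reads or median-of-ratios factors, no member in either case, and 152 miRNAs had an unadjusted p under 0.05. Same-numbered samples did not deviate together (r = -0.15 across 319 miRNAs, which are not independent replicates). With the replicate block the number called was 0 in RPM, and also 0 in RPM with the pairing crossed, an alternative added after seeing the data. With the replicate block and miRNA reads it was 6, and the crossed pairing was not run with miRNA reads. The block changed no call of a member at the FDR and fold thresholds, and at an unadjusted p under 0.05 miR-34b-3p no longer passed with it.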
